A study of Mus musculus with 6 samples.

Results

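The 51 genes described here encode the proteins that copy DNA and make its building blocks, in 10 roles: the MCM helicase, origin licensing, helicase activation, the sliding clamp and its loader, the single-strand binding protein RPA, the DNA polymerases with primase, the joining of Okazaki fragments, deoxynucleotide enzymes, the E2F and cyclin E regulators, and the copying of chromatin. They were chosen by name from the gene name column of the count files, with more than 500 counts summed over the 6 libraries. All 51 names were found and all 51 passed this limit, out of 34745 genes in the files and 10046 genes that passed it and were tested. RNA had been sequenced from 889 (also called 889-DTC), a murine lung cancer cell line that the labels give as strain C57BL/6 and tissue lung. Cells of 3 libraries, sg-con, expressed a control sgRNA (lentiCRISPR-EGFP sgRNA1 in the study's methods, treatment "control" in the labels), and cells of 3 libraries, sg-kiaa1522, expressed an sgRNA against kiaa1522 (treatment "KIAA1522-downregulated"). Both groups were transduced with a lentiviral Cas9 and sgRNA vector, and transduced cells were selected with puromycin or by sorting, with no cloning step described. Which of the 2 kiaa1522 sgRNAs the sequenced cells carried is not given in the sources used here, and neither is whether the replicates came from separate cultures. The p-values therefore measure the spread between these libraries, which may be technical. The comparison asks which genes differ between the cells labelled as carrying kiaa1522 sgRNA and those labelled control.

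Before a cell divides, the origin recognition complex, Cdc6 and Cdt1 load the MCM helicase onto DNA, and at the start of S phase Cdc45 and the GINS complex turn it into an active helicase. Polymerase alpha with primase starts each strand, polymerases delta and epsilon extend it with the clamp PCNA, and Fen1 and Lig1 join the pieces. Most of these genes are known targets of the E2F transcription factors, so their mRNA rises and falls with the cell cycle, and the deoxynucleotide enzymes Rrm2, Tyms and Tk1 are among the most strongly cycling of them.

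The libraries held between 16581000 and 18559660 counts in sg-con and between 12220001 and 18609376 in sg-kiaa1522, where replicate 1 was the shallowest. Levels are given as CPM, read counts relative to the size of the library after TMM scaling, and tests are quasi-likelihood tests of edgeR, with p-values adjusted over the 10046 genes by the Benjamini-Hochberg method. The mRNA of the targeted gene went against its label: kiaa1522 (listed as C77080, on chromosome 4) was at 127, 130 and 124 CPM in the sg-con libraries and at 210, 203 and 216 CPM in the sg-kiaa1522 libraries, a log2 fold change of 0.73 (SE 0.0569, adjusted p = 9.1e-05). The label does not say whether RNA or protein is meant, and protein is not measured in these data. The libraries are therefore named by their labels throughout, with control libraries for those labelled sg-con, and every direction given here is between the groups as labelled. Of 11 lung epithelium markers, 10 had more than 3 counts in at least 1 library, and Epcam was at 0 in every library. The summed level of the 11 markers, most of it Krt8, Krt18 and Krt19, was between 3909 and 4620 CPM in sg-con and between 3280 and 3524 CPM in sg-kiaa1522. Napsa had 21 counts or fewer in each library, and Nkx2-1 lay between 9.49 and 59.1 CPM over the libraries. The sum of 7 fibroblast markers (5 with more than 3 counts in a library), most of it Col1a2, was between 467 and 486 CPM against between 167 and 198 CPM, with Dcn and Lum at 2 counts or fewer in each library. The sum of 7 leukocyte markers (4 with more than 3 counts in a library) was between 1.29 and 2.70 CPM against between 10.1 and 13.0 CPM, nearly all of it Cd68, with Adgre1 and Cd3e at 0 in every library. The sum of 5 endothelium markers (all with more than 3 counts in a library), most of it Vwf, was between 3.66 and 5.45 CPM against between 9.42 and 11.8 CPM, and Cdh5 was at 0 in the sg-kiaa1522 libraries. What these markers' differences have to do with the results below was not tested.

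Transcripts of the DNA replication machinery were mostly lower in the libraries labelled sg-kiaa1522. Of the 51 genes, 38 were lower and 3 were higher at an adjusted p of at most 0.05, and 10 did not pass. Among all 10046 tested genes, 26.3% were lower and 26.3% were higher by the same rule. The log2 fold change was below 0 for 47 of the 51 genes, with a median of -0.48 beside a median of -0.01 over all tested genes. By the threshold of the study's methods, which also asks for a 2-fold difference (its volcano plot has another rule, with a larger fold and a p-value not described as adjusted), 8 genes were lower (Tyms, Tk1, Prim1, Chaf1b, Rrm2, Pola1, Fen1 and Cdc6) and 0 were higher, where 4.34% and 2.74% of all tested genes passed. The 3 genes that rose were Orc2, Dut and Cdt1. The groups did not overlap for 41 of the 51 genes on the lower side and 3 on the higher side, beside 31.1% and 30.6% of all tested genes. Cdc6, with a log2 fold change of -1.01, was just inside the 2-fold limit, and Rfc2, with -0.997, was just outside it. In bulk RNA, fewer cells in S phase and less of these transcripts in each cell cannot be told apart.

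**Figure D1:**
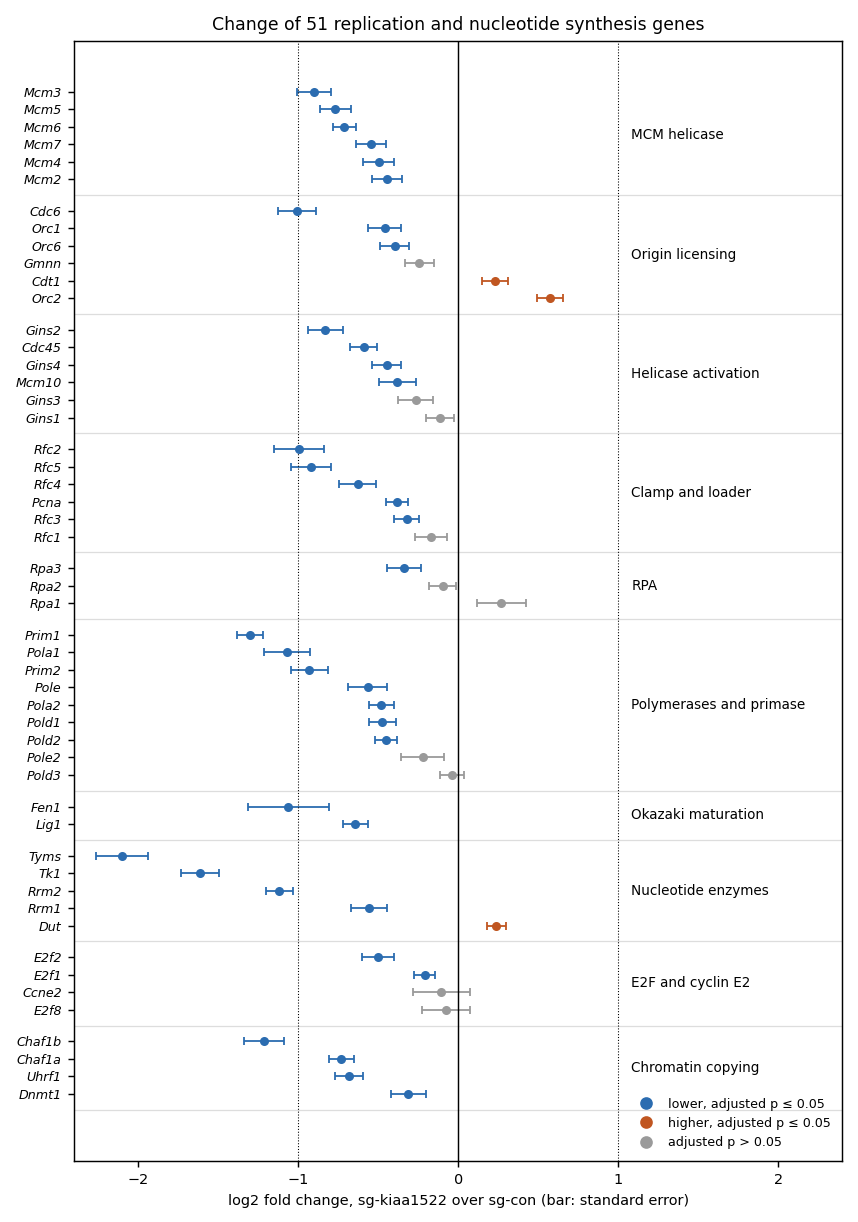
Log2 fold change of the 51 genes between the libraries labelled sg-kiaa1522 and sg-con (horizontal axis), grouped by role, with points for the edgeR estimate, bars for its standard error and dotted lines at a log2 fold change of 1 in size. Tyms and Tk1 lie farthest to the left, 38 genes are blue (lower) and Orc2, Cdt1 and Dut are orange (higher).

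The enzymes that supply deoxynucleotides showed the largest falls of any role, with 4 of 5 genes lower. Tyms, thymidylate synthase, makes thymidylate from deoxyuridylate. Tyms (chr5:30058202-30073617) was at 19.2, 22.3 and 28.3 CPM in the sg-con libraries and at 5.68, 5.51 and 5.07 CPM in the libraries labelled sg-kiaa1522. The sg-kiaa1522 libraries lay close together, far below the lowest control library. Its mean fell 4.30-fold, from 23.3 ± 4.59 to 5.42 ± 0.319 CPM (SD, n = 3 each), and the log2 fold change was -2.10 (SE 0.164, adjusted p = 9.0e-05). Tk1, cytosolic thymidine kinase, feeds salvaged thymidine into the same thymidylate pool. Tk1 (chr11:117815526-117826092) was at 70.5, 79.5 and 93.5 CPM in sg-con and at 24.6, 26.9 and 27.9 CPM in sg-kiaa1522, and it fell 3.06-fold with a log2 fold change of -1.61 (SE 0.119, adjusted p = 7.4e-05). The transcripts for both routes to thymidylate were thus lower in every sg-kiaa1522 library than in any control library.

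Rrm2 and Rrm1 encode the small and the large subunit of ribonucleotide reductase, which turns ribonucleotides into deoxyribonucleotides. Rrm2 (chr12:24708241-24714146) was at 185, 182 and 190 CPM in sg-con and at 76.0, 86.7 and 93.9 CPM in sg-kiaa1522, a log2 fold change of -1.12 (SE 0.0844, adjusted p = 8.2e-05). Rrm1 fell less, from 165 ± 15.3 to 112 ± 14.8 CPM (SD, n = 3 each; log2 fold change -0.56, adjusted p = 0.0045). Per length, as TPM, the ratio of Rrm2 to Rrm1 was 4.14, 4.31 and 5.11 in the control libraries and 3.13, 3.07 and 2.96 in the sg-kiaa1522 libraries, so the ratio too did not overlap between the groups. The lengths are those of all annotated exons merged, 2771 bases for Rrm2 and 11012 for Rrm1. The level of a TPM ratio depends on such lengths, while its change between the groups does not. Dut, the dUTPase that keeps uracil out of DNA and supplies deoxyuridylate to thymidylate synthase, moved the other way. It was at 118, 125 and 128 CPM in sg-con and at 146, 144 and 146 CPM in sg-kiaa1522, a log2 fold change of 0.24 (SE 0.0589, adjusted p = 0.012). Tested genes of chromosome 2, where Dut lies, had a median log2 fold change of 0.14, and with the median of each chromosome removed the difference of Dut was 0.09 (adjusted p = 0.21). The TPM ratio of Tyms to Dut, the enzymes that follow each other in the pathway, went from 0.0743 ± 0.0117 to 0.0147 ± 0.000918 (SD, n = 3 each). The TPM ratio of Tk1 to Dut went from 0.304 ± 0.0311 to 0.0843 ± 0.0055. For each of these ratios the exact two-sided permutation test gave p = 0.1, the smallest it allows with 3 libraries against 3, and the ratios were chosen after the values were seen.

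**Figure D2:**
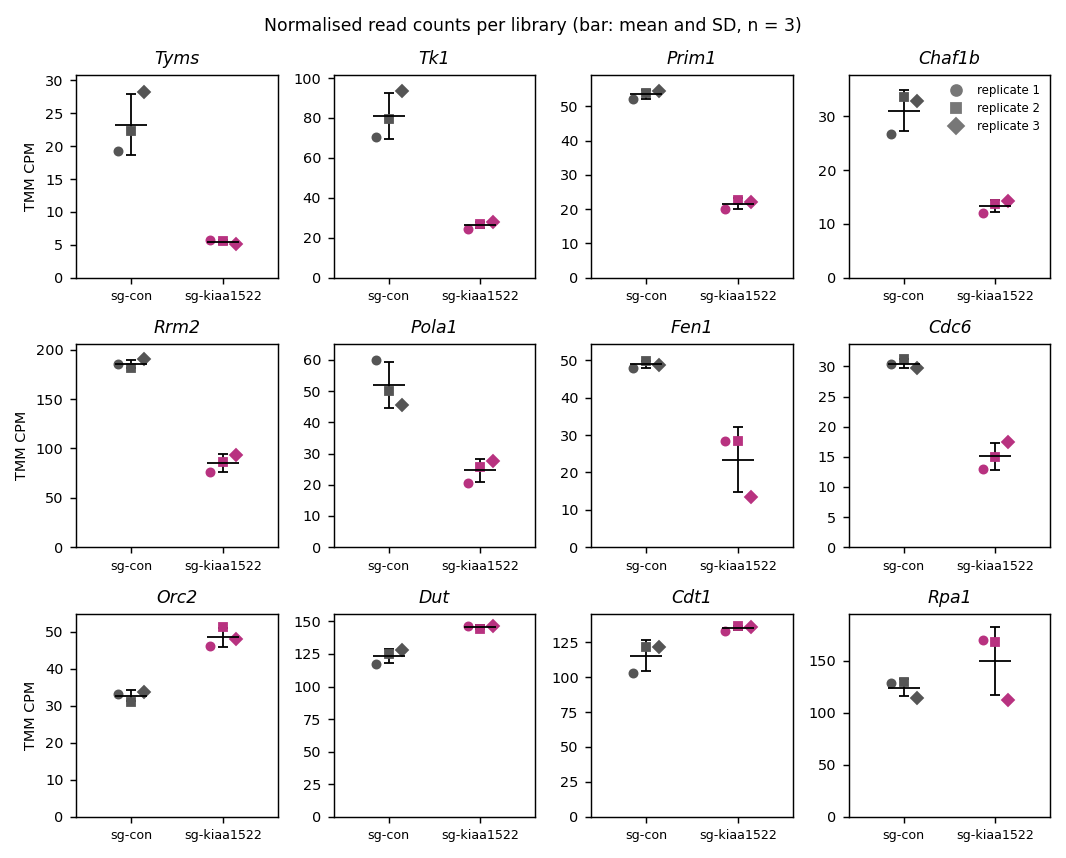
Level in TMM CPM (vertical axes, each from 0) of 12 genes in the 3 sg-con and 3 sg-kiaa1522 libraries, with the replicate number as the symbol and the mean and SD of each group as bars. The groups do not overlap except for Rpa1, and replicate 3 of sg-kiaa1522 stands apart in Fen1 (13.5 CPM) and Rpa1 (112 CPM).

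All 6 subunits of the MCM helicase, the ring that unwinds DNA ahead of the fork, were lower. Their log2 fold changes ran from -0.90 for Mcm3 to -0.44 for Mcm2, and their groups did not overlap. Mcm3 was at 129, 133 and 122 CPM in sg-con and at 57.8, 70.5 and 77.2 CPM in sg-kiaa1522 (log2 fold change -0.90, SE 0.108, adjusted p = 0.00047). Mcm5 was at 119, 125 and 115 CPM in sg-con and at 60.4, 76.3 and 74.1 CPM in sg-kiaa1522 (log2 fold change -0.77, SE 0.0972, adjusted p = 0.0006). In both genes, as in the other subunits, replicate 1 of sg-kiaa1522 was the lowest library. Mcm6, Mcm7, Mcm4 and Mcm2 had log2 fold changes of -0.71, -0.55, -0.50 and -0.44 with adjusted p between 0.00025 and 0.0055. Per length, Mcm6 had the highest level of the 6 subunits (150 ± 1.74 TPM in sg-con) and Mcm2 the lowest (61.9 ± 1.88 TPM). The place of Mcm2 depends on the length used, 6956 bases for all its annotated exons merged. In CPM, Mcm2 (mean of 168 in sg-con) lay above Mcm3, Mcm4 and Mcm5.

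The licensing factors, which load this helicase at origins, were split. Cdc6, the ATPase that recruits the helicase, was at 30.4, 31.2 and 29.7 CPM in sg-con and at 12.9, 14.9 and 17.4 CPM in sg-kiaa1522 (chr11:98907801-98923940; log2 fold change -1.01, SE 0.119, adjusted p = 0.00045). The origin recognition complex marks the sites of loading. Its subunit Orc2 (chr1:58462771-58505109) was at 33.2, 31.0 and 33.8 CPM in sg-con and at 46.3, 51.3 and 48.1 CPM in sg-kiaa1522, a 1.49-fold rise (log2 fold change 0.57, SE 0.0809, adjusted p = 0.00097). Orc1 and Orc6, subunits of the same complex, were lower, with log2 fold changes of -0.46 (adjusted p = 0.0077) and -0.40 (adjusted p = 0.0072). Of the exon length of Orc2, 29.8% is shared with Nif3l1 on the opposite strand, which had a log2 fold change of -0.20 (adjusted p = 0.13). Orc1 shares 10.8% of its exon length with Gm12743 (63 counts), and Orc6 shares 6.93% with Vps35, which had 30538 counts and was higher (log2 fold change 0.40, adjusted p = 0.0047).

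Cdt1 and its inhibitor geminin (Gmnn) set whether an origin can be licensed. Cdt1 was at 103, 122 and 121 CPM in sg-con and at 133, 137 and 136 CPM in sg-kiaa1522, a small rise with a log2 fold change of 0.23 (SE 0.0789, adjusted p = 0.042). The control library of replicate 1 was lower than the other controls. Without it the log2 fold change was 0.15 (adjusted p = 0.033), and the call was lost when replicate 2 of sg-con or any sg-kiaa1522 library was left out (adjusted p up to 0.11), with library size alone as the scaling (0.055), with all genes of at least 1 count tested (0.051) and with the median of each chromosome removed (0.17). Gmnn did not pass (33.9 ± 2.55 CPM against 28.6 ± 1.62 CPM, SD, n = 3 each, adjusted p = 0.056), although its groups did not overlap, and passed as lower with library size alone (adjusted p = 0.047) or a GC correction (0.042). The TPM ratio of Cdt1 to Gmnn was 1.32, 1.82 and 1.67 in sg-con and 2.05, 2.24 and 2.34 in sg-kiaa1522 (exact two-sided permutation p = 0.1, the smallest possible).

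Of the factors that activate the loaded helicase, 4 of 6 were lower. Gins2, a subunit of the GINS complex, was at 46.5, 49.6 and 45.6 CPM in sg-con and at 22.8, 26.6 and 30.0 CPM in sg-kiaa1522 (log2 fold change -0.83, SE 0.111, adjusted p = 0.00074). Cdc45, which travels with the helicase and GINS, was at 38.1, 38.6 and 39.2 CPM in sg-con and at 23.7, 27.4 and 25.6 CPM in sg-kiaa1522 (log2 fold change -0.59, SE 0.0835, adjusted p = 0.00096). The subunits of GINS differed in size of change, since Gins4 fell by 0.45 on the log2 scale (adjusted p = 0.0049) while Gins3 and Gins1 had -0.27 and -0.12 and did not pass (adjusted p = 0.076 and 0.29). With the median of each chromosome removed, Gins3 and Gins1 passed as lower (adjusted p = 0.030 and 0.040). Mcm10, which helps the helicase start, had a log2 fold change of -0.38 (adjusted p = 0.025), and lost the call when any of 4 libraries was left out (adjusted p up to 0.090). Gins2 shares 67.3% of its exon length with Gse1 on the opposite strand, and Gse1 had a log2 fold change of -0.33 (adjusted p = 0.19).

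The sliding clamp PCNA holds the polymerases on DNA, and replication factor C, made of Rfc1 to Rfc5, opens and loads it. Rfc2 was at 42.8, 60.8 and 62.1 CPM in sg-con and at 25.0, 30.5 and 27.4 CPM in sg-kiaa1522 (log2 fold change -0.997, SE 0.157, adjusted p = 0.0016). Rfc5 was at 29.0, 36.1 and 33.4 CPM in sg-con and at 15.4, 17.1 and 19.5 CPM in sg-kiaa1522 (log2 fold change -0.92, SE 0.125, adjusted p = 0.00082). The small loader subunits Rfc4 and Rfc3 were lower as well (-0.63 and -0.32, adjusted p = 0.0031 and 0.012), whereas the large subunit Rfc1, with 133 ± 17.8 CPM in sg-con and 118 ± 5.16 CPM in sg-kiaa1522, overlapped between the groups and did not pass (adjusted p = 0.19). Pcna itself was lower, by a size between those of Rfc4 and Rfc3, with 87.6 ± 4.72 CPM in sg-con and 67.1 ± 2.41 CPM in sg-kiaa1522 (SD, n = 3 each; log2 fold change -0.38, adjusted p = 0.003). Rfc4 shares 12.7% of its exon length with Eif4a2, which rose (log2 fold change 0.75), and Rfc2 and Rfc5 share 15.1% and 10.7% of theirs with Lat2 and Wsb2.

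RPA, the trimer that coats single-stranded DNA, had 1 of 3 subunits lower. Rpa3 was at 33.6, 29.2 and 26.9 CPM in sg-con and at 22.1, 24.1 and 24.6 CPM in sg-kiaa1522 (log2 fold change -0.34, SE 0.108, adjusted p = 0.031). Its call was lost when any library but replicate 3 of sg-con was left out (adjusted p up to 0.087). Rpa2 had 39.0 ± 2.56 CPM in sg-con and 36.4 ± 1.21 CPM in sg-kiaa1522 (adjusted p = 0.34). Rpa1, the largest subunit, was at 128, 130 and 115 CPM in sg-con and at 170, 168 and 112 CPM in sg-kiaa1522. Replicate 3 of sg-kiaa1522 was below every control library while the other sg-kiaa1522 libraries were above them. With all libraries Rpa1 did not pass (log2 fold change 0.27, SE 0.155, adjusted p = 0.18), and without that library it was higher, with a log2 fold change of 0.44 (adjusted p = 0.0076).

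Of the 9 genes of DNA polymerases and primase, 7 were lower, and the 3 largest falls were in the complex that starts new strands. Prim1, the catalytic subunit of primase, which makes the RNA primer, was at 52.1, 53.9 and 54.4 CPM in sg-con and at 19.9, 22.8 and 22.1 CPM in sg-kiaa1522 (chr10:128015168-128030037; log2 fold change -1.30, SE 0.083, adjusted p = 4.5e-05). Pola1, the catalytic subunit of polymerase alpha, was at 60.0, 50.2 and 45.5 CPM in sg-con and at 20.4, 25.8 and 27.6 CPM in sg-kiaa1522 (chrX:93304767-93632155; log2 fold change -1.07, SE 0.145, adjusted p = 0.0008). All sg-kiaa1522 libraries were below all control libraries for both genes. Prim2, the other primase subunit, had a log2 fold change of -0.93 (adjusted p = 0.00054), and Pola2, the regulatory subunit of polymerase alpha, one of -0.48 (adjusted p = 0.0017). The TPM ratio of Prim1 to Pola2 accordingly went from 1.28 ± 0.0596 to 0.719 ± 0.0458 (SD, n = 3 each; exact two-sided permutation p = 0.1, the smallest possible). Of the polymerases that extend the strands, the catalytic subunits Pole and Pold1 had -0.57 and -0.47 (adjusted p = 0.0068 and 0.0026), and Pold2, an accessory subunit, had -0.45 (adjusted p = 0.0013). The accessory subunits Pole2 and Pold3 overlapped between the groups and did not pass (-0.22 and -0.04, adjusted p = 0.20 and 0.69). Among their subunits outside the 51 genes, Pole3 was lower (-0.60, adjusted p = 0.00064) and Pold4 was higher (0.66, adjusted p = 0.00019). Pole4 did not pass (-0.24, adjusted p = 0.074).

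Both enzymes that finish Okazaki fragments were lower. Fen1, the nuclease that removes primer flaps, was at 47.92, 49.96 and 48.84 CPM in sg-con and at 28.5, 28.4 and 13.5 CPM in sg-kiaa1522 (chr19:10199132-10204169; log2 fold change -1.06, SE 0.253, adjusted p = 0.0098). Replicate 3 of sg-kiaa1522 was far below the others, and without that library the log2 fold change was -0.78, short of 2-fold (adjusted p = 0.0015). Of its exon length, 78.8% is shared with Gm10143 on the opposite strand, a gene with 54 counts in all libraries together beside 3671 counts for Fen1, and 5.37% with Tmem258, also on the opposite strand, which had 6265 counts and a log2 fold change of -0.01 (adjusted p = 0.97). Lig1, the ligase that seals the fragments, was at 164, 188 and 180 CPM in sg-con and at 106, 114 and 120 CPM in sg-kiaa1522 (log2 fold change -0.64, SE 0.0769, adjusted p = 0.00047).

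The 4 genes that copy chromatin with the DNA were all lower. Chaf1b and Chaf1a encode subunits of CAF-1, which places histones on new DNA behind the clamp. Chaf1b (chr16:93883901-93906115) was at 26.6, 33.6 and 32.8 CPM in sg-con and at 12.0, 13.7 and 14.3 CPM in sg-kiaa1522 (log2 fold change -1.21, SE 0.124, adjusted p = 0.00024). Chaf1a was at 197, 207 and 208 CPM in sg-con and at 109, 130 and 130 CPM in sg-kiaa1522 (log2 fold change -0.73, SE 0.0801, adjusted p = 0.00032), and 52.5% of its exon length is shared with Ubxn6, which had a log2 fold change of 0.16 (adjusted p = 0.15). Dnmt1 copies DNA methylation onto the new strand, and Uhrf1 brings it there. Uhrf1 fell from 278 ± 5.07 to 173 ± 19.8 CPM (SD, n = 3 each; log2 fold change -0.68, adjusted p = 0.00064). Dnmt1 was at 238, 237 and 219 CPM in sg-con and at 158, 188 and 214 CPM in sg-kiaa1522 (log2 fold change -0.31, adjusted p = 0.043). Replicate 3 of sg-kiaa1522 nearly reached the lowest control, and the call was lost without any library but that replicate (adjusted p up to 0.11, and a log2 fold change of -0.21 without replicate 1 of sg-kiaa1522) and with a correction for GC content (0.11).

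Of the 4 regulators 2 were lower. E2f1 and E2f2 are activating E2F factors. E2f2 was at 25.4, 27.4 and 26.9 CPM in sg-con and at 17.2, 20.7 and 18.3 CPM in sg-kiaa1522 (log2 fold change -0.50, SE 0.10, adjusted p = 0.0045). E2f1 was at 68.8, 66.7 and 70.4 CPM in sg-con and at 58.1, 60.2 and 59.5 CPM in sg-kiaa1522 (log2 fold change -0.21, SE 0.066, adjusted p = 0.029). Its call was lost without any library but replicate 1 of sg-con (adjusted p up to 0.084), with a correction for GC content (0.17) and with all genes of at least 1 count tested (0.083). E2f8, a repressing E2F factor, and Ccne2, cyclin E2, which activates CDK2 at the start of S phase, overlapped between the groups and did not pass (log2 fold changes of -0.08 and -0.11, adjusted p = 0.69 and 0.64). Ccne2 shares 17.4% of its exon length with Ints8 (4824 counts beside 1883 for Ccne2), and E2f8 shares 11.2% with Gm2788 (116 counts).

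Libraries of the same label were not equally low. Relative to the mean of the control libraries, the median log2 difference over the 51 genes was -0.60, -0.48 and -0.39 in replicates 1, 2 and 3 of sg-kiaa1522, and between -0.01 and 0.02 in the control libraries. Replicate 1 of sg-kiaa1522, the shallowest library, was the lowest of its group in 41 of the 51 genes. It was also the lowest of its group in 35 of 40 genes of mitosis, where the medians were -0.29, 0.03 and 0.02. Without that library 34 of the 51 genes were lower, 2 were higher and 6 were lower at 2-fold, and the median log2 fold change was -0.45. What sets this library apart was not tested.

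**Figure D3:**
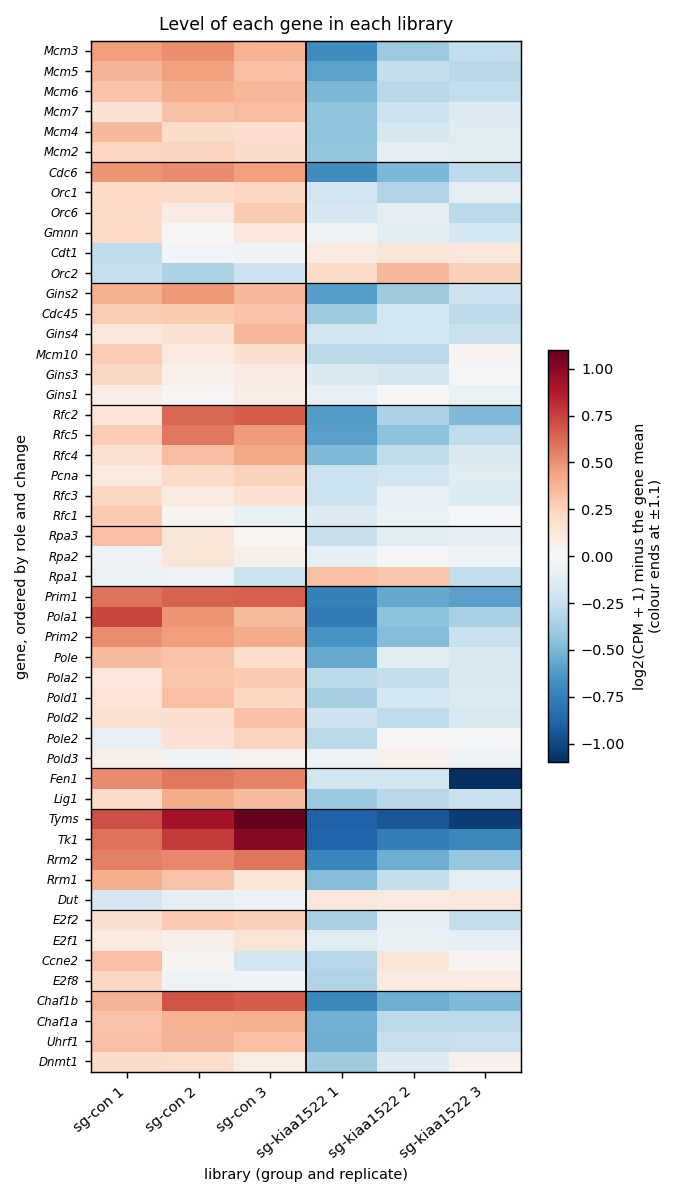
Level of the 51 genes in each of the 6 libraries as log2(CPM + 1) minus the mean of the gene over the libraries (colour), with genes in rows grouped by role between black lines. The sg-kiaa1522 columns are blue in most rows, deepest in replicate 1, while Orc2, Cdt1 and Dut are red there.

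The other genes of these pathways, 91 genes in 4 lists of which 89 were tested, had shares of calls near those of all tested genes. Of the 89 genes, 25 were lower and 19 were higher, or 28.1% and 21.3% beside 26.3% and 26.3% of all tested genes, with a median log2 fold change of -0.10 (-0.04 without replicate 1 of sg-kiaa1522). Among other origin and fork factors, 11 of 28 were lower and 6 were higher (39.3% and 21.4%). Timeless, which steadies the fork, was at 30.8, 34.9 and 32.3 CPM in sg-con and at 9.97, 12.2 and 10.8 CPM in sg-kiaa1522 (log2 fold change -1.57, adjusted p = 6.2e-05), and Chtf18, of an alternative clamp loader, had a log2 fold change of -1.22 (adjusted p = 0.00019). Dbf4, the activator of the Cdc7 kinase, and the origin complex subunit Orc4 were higher (0.79 and 0.77, adjusted p = 0.00021 and 0.00028). Of the remaining subunits of that complex, Orc3 was lower (-0.30, adjusted p = 0.011) and Orc5 did not pass (-0.11, adjusted p = 0.37). Dscc1, which works in the same alternative clamp loader as Chtf18, was under the limit of 500 counts and not tested, with 97, 92 and 102 counts in sg-con and 7, 17 and 23 counts in sg-kiaa1522. Dna2, the other gene under the limit, had between 63 and 97 counts in sg-con and between 40 and 75 counts in sg-kiaa1522.

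Other genes of nucleotide synthesis were 6 lower and 7 higher of 31 (19.4% and 22.6%). Dtymk, the kinase that follows Tyms and Tk1 in the thymidylate pathway, and Shmt1, which supplies the one-carbon unit for thymidylate, were lower (-0.77 and -0.60, adjusted p = 0.006 and 0.0032). Cad, which starts pyrimidine synthesis, was at 88.3, 87.1 and 80.1 CPM in sg-con and at 200, 199 and 216 CPM in sg-kiaa1522 (log2 fold change 1.27, SE 0.0677, adjusted p = 2.4e-05). Ctps, CTP synthase, rose as well (0.88, adjusted p = 4.8e-05). The count of higher genes in this list fell to 4 without replicate 2 of sg-kiaa1522. Of 13 other genes of chromatin replication, 5 were lower (38.5%) and 1, the histone chaperone Nasp, was higher (0.33, adjusted p = 0.015). Tonsl, which reads new histones at forks, and the chromatin protein Dek had the largest falls among those that passed (-0.72 and -0.57, adjusted p = 0.0011 and 0.0018). In the E2F-RB network 3 of 17 were lower and 5 were higher (17.6% and 29.4%): Cdk2, the kinase of cyclin E, and the transcription factor Mybl2 fell by 0.84 and 0.45 on the log2 scale (adjusted p = 0.0063 and 0.010), and Ccne1, cyclin E1, and Lin54, a subunit of the DREAM complex, rose (0.75 and 0.62, adjusted p = 0.00095 and 0.018). The call of Nasp was lost without replicate 2 of sg-con or replicate 2 or 3 of sg-kiaa1522 (adjusted p up to 0.062), and that of Lin54 without replicate 3 of sg-con or replicate 2 or 3 of sg-kiaa1522 (up to 0.064). In the E2F-RB network 3 genes were higher without replicate 3 of either group.

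Genes that act later in the cycle, in mitosis, were measured for comparison. Of 40 mitosis genes 11 were lower, 7 were higher and 22 did not pass, or 27.5% lower and 17.5% higher beside 26.3% and 26.3% of all tested genes. Their median log2 fold change was -0.06, and it was 0.02 without replicate 1 of sg-kiaa1522, -0.12 without replicate 2 and -0.11 without replicate 3. Spc24, a kinetochore protein, and Birc5, a subunit of the chromosomal passenger complex, had the largest falls (-1.36 and -0.94, adjusted p = 0.00039 and 0.0011). Aurka, the centrosome kinase, and Anln, a protein of the cleavage furrow, had the largest rises (0.59 and 0.56, adjusted p = 0.0078 and 0.014). The call of Anln was lost without replicate 2 of sg-con or replicate 2 or 3 of sg-kiaa1522 (adjusted p up to 0.052). The count of lower mitosis genes moved with single libraries, to 6 without replicate 2 of sg-con or replicate 1 of sg-kiaa1522 and 7 without replicate 3 of sg-kiaa1522. The count of higher ones fell to 4 without replicate 2 of sg-con and to 3 without replicate 3 of sg-kiaa1522. The 2 sets of genes were not compared by a test.

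**Figure D4:**
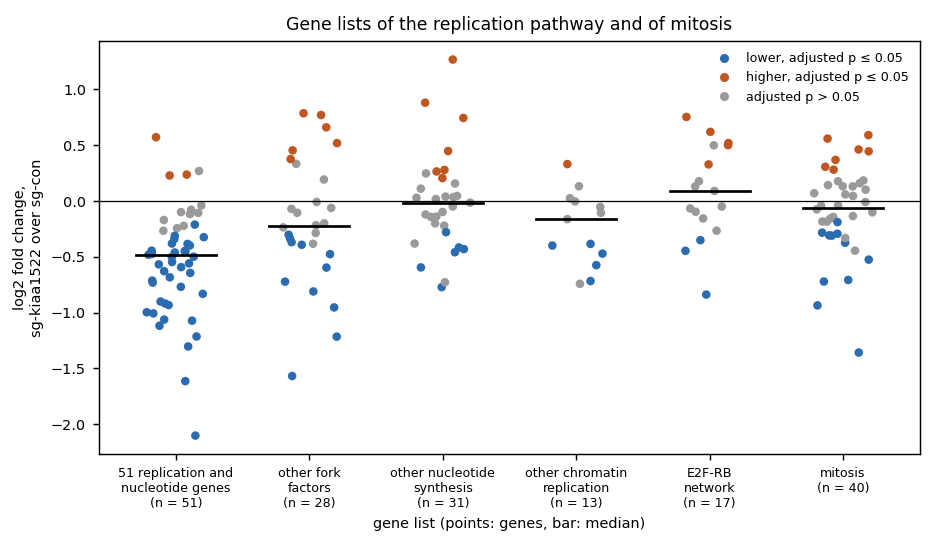
Log2 fold change (vertical axis) of the tested genes of each list, with a point for each gene, its colour for the call at the 0.05 threshold, and a bar at the median of the list. The bar of the 51 genes lies at -0.48, and those of the other lists lie between -0.23 and 0.09 with points on both sides of 0. With a library left out, the medians of other nucleotide synthesis genes, the E2F-RB network and mitosis took either sign.

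Promoters of these genes were examined because E2F factors are known to act there. RefSeq start sites on GRCm38.p6 gave windows from 250 bases before to 50 bases after the start for 42 of the 51 genes. They were searched on both strands for the 4 E2F-type words TTTCCCGC, TTTCGCGC, TTTGCCGC and TTTGGCGC, which can overlap each other on opposite strands. Such a word was found in 17 of the 42 genes (40.5%), beside 2.60% of all 27025 genes with a window of this length, 22.7% of 75 other genes of these pathways and 3.03% of 33 mitosis genes. For comparison, the word TTTGAA, the core of the cell cycle homology region (CHR) known from mitosis genes, was in 19.0% of the 42 genes, 78.8% of the mitosis genes and 20.2% of all genes. The word CCAAT was in 64.3% of the 42 genes, 75.8% of the mitosis genes and 41.1% of all genes. These shares of all genes include genes that were not tested here for lack of counts, and shares over the tested genes alone were not computed. Of the 17 genes with the E2F-type word 13 were lower and 1 was higher, with a median log2 fold change of -0.50. Of the 25 genes whose windows lacked it 19 were lower and 2 were higher, with a median of -0.45. The difference between these sets was not tested. The windows of Tyms, Tk1, Prim1, Chaf1b and Rrm2 did not hold these letters, nor did that of Orc2. The 4 genes with the largest falls among those with an E2F-type word before the start are given with 200 bases that end at the base before the RefSeq start, 5′ to 3′ on the strand of the gene. Capitals mark the word on either strand (adjoining capitals are words that overlap or follow each other). A match of letters is a description and not a site of binding.

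Pola1, chrX:93632156-93632355, minus strand: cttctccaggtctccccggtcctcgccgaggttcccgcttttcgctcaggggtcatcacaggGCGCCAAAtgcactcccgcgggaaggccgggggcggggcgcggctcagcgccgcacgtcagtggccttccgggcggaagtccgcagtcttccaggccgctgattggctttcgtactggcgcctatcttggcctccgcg
Cdc6, chr11:98907951-98908150, plus strand: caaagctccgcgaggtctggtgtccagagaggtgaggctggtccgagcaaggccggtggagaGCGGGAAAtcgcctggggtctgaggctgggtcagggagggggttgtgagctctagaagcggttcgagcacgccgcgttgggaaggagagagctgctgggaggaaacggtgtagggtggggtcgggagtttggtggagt
Mcm5, chr8:75109309-75109508, plus strand: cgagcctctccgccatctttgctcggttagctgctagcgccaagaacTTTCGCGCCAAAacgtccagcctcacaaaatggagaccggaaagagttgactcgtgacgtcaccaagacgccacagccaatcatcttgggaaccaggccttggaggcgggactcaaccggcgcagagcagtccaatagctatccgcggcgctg
Mcm6, chr1:128359706-128359905, minus strand: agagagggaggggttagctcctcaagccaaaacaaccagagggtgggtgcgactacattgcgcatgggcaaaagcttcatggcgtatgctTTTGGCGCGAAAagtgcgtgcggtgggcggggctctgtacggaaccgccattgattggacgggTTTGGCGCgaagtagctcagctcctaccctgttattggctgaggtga

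In Pola1 and Cdc6, which both fell past 2-fold, there is a single word, which begins 138 bases before the start in each. In Mcm5 a pair of words on opposite strands overlap, the first of them beginning 153 bases before the start, and in Mcm6 such a pair begins 110 bases before the start and another word 47 bases before it. The stretch of Cdc6 lies inside the gene as GENCODE M21 annotates it, whose first base is 98907801, and the stretches of the other 3 genes lie outside theirs. Mcm3, with the largest fall of the helicase genes, has its 2 words after the start, and its sequence is not shown.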

How the data were processed

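RNA-seq of 6 libraries of 889 cells was analysed, 3 labelled sg-con and 3 labelled sg-kiaa1522. The authors deposited raw counts per Ensembl gene: adaptors and rRNA reads were removed with Seqtk, reads were mapped to GRCm38 with HISAT2 2.0.4, and uniquely mapped fragments were counted with StringTie 1.3.0 (VAHTS Universal V6 kit). The annotation release and the use of strand are not given in the sources used here, so reads of overlapping genes on opposite strands could be shared. The counts and the fold changes computed from them can depend on this for any gene that shares exons with another.

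From the counts, TMM-scaled CPM were computed and groups were compared with edgeR 4.0.16 (R 4.3.3, quasi-likelihood test, TMM, Benjamini-Hochberg over the 10046 genes with more than 500 counts, no covariates, biological coefficient of variation 0.127). The tests were tested on simulated data. TPM used exon lengths of GENCODE M21, to which 34267 of 34745 genes matched. The length of a gene was that of all its annotated exons merged, and levels in TPM depend on it. Ratios were compared with exact permutation tests. Libraries of 1 group differed in their counts by far more than sampling noise (chi-square over its degrees of freedom of 12.3 or more). None is therefore a copy of another, but this cannot tell separate cultures from separate preparations of the same RNA.

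The members and lists were chosen with earlier results of these data known. Per-library values are given for the 2 genes with the largest change in each role and for the genes that rose, and for a few others by their place in the text. Of the other lists the 2 largest falls and rises that passed are named. Dscc1, Dna2, Orc3, Orc5, Pole3, Pole4, Pold4 and the genes that overlap a named one are outside this rule and were chosen after their values were seen. Alternatives were DESeq2 1.42.0, scaling by RLE or by library size alone, 2 other filters on low counts, a replicate block, a GC correction, both, removal of each chromosome's median, each library left out, and an adjusted p of at most 0.01. Leaving out members that share over 10% of their exon length was added after the values were seen. Counting error alone is covered by depth, and 3 counts were taken as the floor.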

Additional observations from a re-analysis of the deposited data

How the results depend on the processing

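The count of lower replication genes was 38 with DESeq2, RLE size factors and edgeR's own expression filter, and was 33 at an adjusted p of at most 0.01 and between 34 and 40 over the refits, and the median log2 fold change stayed below 0 in each refit. Of the 38 lower genes, 32 were lower in every refit (all alternatives but that threshold and the left-out overlapping genes), and 36 of the 41 called genes were called with every library left out in turn. The count of higher genes, 3, fell to 1 with the replicate block, to 1 with the median of each chromosome removed and to 1 at an adjusted p of at most 0.01. At that threshold the counts of other pathway genes fell to 16 lower and 10 higher. With one library left out, the counts lay between 34 and 36 lower and between 6 and 9 lower at 2-fold. Ccne2 and E2f8, which did not pass, changed sign in these fits, with log2 fold changes between -0.24 and 0.048 and between -0.15 and 0.053. The members that share over 10% of their exon length with another gene are Orc1, Orc2, Gins2, Rfc2, Rfc4, Rfc5, Fen1, E2f8, Ccne2 and Chaf1a. Of the remaining members, whose calls stay as they were, 31 were lower and 2 were higher. The cause of these shifts was not tested. By construction, the stricter threshold calls fewer genes and the count without overlapping members is taken over fewer genes.

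The groups share replicate numbers, but same-numbered libraries did not deviate together: the correlations of their deviations lay between -0.24 and -0.05, beside a mean of 0.08 for different numbers. With the replicate block 34 genes were lower, 1 was higher and 8 were lower at 2-fold, and 2111 and 2109 of all genes were lower and higher. Dut, Cdt1, E2f1, Dnmt1, Rfc3 and Rpa3 lost their calls (adjusted p between 0.055 and 0.11). With the block and a GC correction together 35 were lower and 3 higher, and Dnmt1, E2f1 and Mcm2 lost their calls (adjusted p between 0.063 and 0.30). No other member's call changed in these fits. Orc3 lost its call with the block (adjusted p = 0.053). With the block 5 mitosis genes were lower and 7 higher, and 4 other genes of nucleotide synthesis were lower and 4 higher.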
